A study of Mus musculus with 24 samples.

Results

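The small non-coding RNA genes comprised every row of the expression table annotated as small nucleolar RNA (snoRNA), small Cajal body RNA (scaRNA), small nuclear RNA (snRNA) or miscellaneous RNA (misc_RNA), together with Rn7s1, Rn7s2, Rn7sk, Rpph1 and Rmrp. They numbered 187 of the 23891 genes in the table. By annotation, 98 were snoRNA, 14 were scaRNA, 35 were snRNA and 38 were misc_RNA, and the last number includes Rn7s1, Rn7s2 and Rn7sk. The set was chosen by annotation after the measured 7SL level had been seen to vary between these libraries, and the 5 genes given by name were chosen with their levels known, so those 5 are described without a test. A test was possible for 109 of the other 182 genes, whose CPM (reads on a gene scaled to the same total in every library) averaged at least 1 over all libraries.

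RNA-Seq was performed on the left lung lobe of 24 C57BL/6 mice, 1 library per mouse. Naïve adult mice (n = 5) were 20 wk old and naïve aged mice (n = 5) were 80 wk old, and both groups received saline. The naïve aged group is called saline below. Aged mice of 80 wk were sensitized and challenged intranasally with house-dust mite extract (HDM), an allergen, at 50 µg per dose (n = 7). A further aged group received the same HDM and the synthetic glucocorticoid dexamethasone (Dex) intraperitoneally every 72 h, at 4 mg/kg (n = 7). The last HDM preceded collection of challenged lungs by 24 h. Sex was not given by the labels. Reads of Xist and Ddx3y placed 5 of 5 naïve adult, 2 of 5 saline, 2 of 7 HDM and 4 of 7 HDM + Dex mice as female. The questions were how HDM, Dex and age change the lung, and here which small RNA classes moved with 7SL RNA.

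7SL RNA, made by RNA polymerase III from Rn7s1 and Rn7s2, is the RNA of the signal recognition particle, which brings secretory proteins to the endoplasmic reticulum. The snoRNA guide the modification of ribosomal RNA or, like U3 and U8, are needed to cut its precursor, while scaRNA guide the modification of snRNA in Cajal bodies, and snRNA form the spliceosome. Most mouse snoRNA and scaRNA are released from introns of other genes, whereas U1, U2, U3 and 7SL RNA have promoters of their own. The mature forms of most of these RNA carry no poly(A) tail.

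Sequences were taken from the GENCODE M21 transcripts on GRCm38, which held 185 of the 187 genes. Rn7s1 and Rn7s2, whose summed level the others were compared with, had identical sequences, so reads of one cannot be told from reads of the other.

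The first set shows snoRNA with positive slopes on 7SL RNA, a quantity explained below. They are 2 of the 3 U3 genes, which had the steepest class slope, Rnu3a (chr10:40258467-40258680, plus strand) and Rnu3b4 (chr11:87462286-87462501, plus strand), then Snord118, which encodes U8 (chr11:69073427-69073561, plus strand), and Snord15b (chr7:99479563-99479707, minus strand). Capitals mark TGATGA, the core sequence of box C, and CTGA, the sequence of box D, both read on the RNA strand only. These boxes bind the proteins of C/D snoRNA. Every CTGA is marked, and which of them serves as box D was not tested.
Rnu3a: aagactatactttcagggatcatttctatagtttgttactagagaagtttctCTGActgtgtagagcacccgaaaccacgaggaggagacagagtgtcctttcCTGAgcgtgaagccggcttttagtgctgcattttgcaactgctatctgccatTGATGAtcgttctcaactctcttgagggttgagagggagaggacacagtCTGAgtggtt
Rnu3b4: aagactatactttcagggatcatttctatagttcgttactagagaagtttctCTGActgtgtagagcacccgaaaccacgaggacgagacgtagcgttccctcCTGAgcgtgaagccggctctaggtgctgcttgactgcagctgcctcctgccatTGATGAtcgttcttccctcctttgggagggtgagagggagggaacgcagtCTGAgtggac
Snord118: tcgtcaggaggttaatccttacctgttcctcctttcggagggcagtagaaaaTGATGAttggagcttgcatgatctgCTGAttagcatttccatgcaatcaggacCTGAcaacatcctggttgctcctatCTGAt
Snord15b: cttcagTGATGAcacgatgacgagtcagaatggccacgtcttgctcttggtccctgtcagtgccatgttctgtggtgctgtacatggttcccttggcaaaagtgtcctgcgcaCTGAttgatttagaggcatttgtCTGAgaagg

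Both motifs stood in 28 of the 185 sequences (15.1%), against 7 of 8 genes with a Snord symbol, 10 of 58 other snoRNA, 6 of 14 scaRNA and 0 of 31 genes with a Snora symbol. CTGA, with or without the other motif, stood in 135 sequences (73.0%). Rnu3a and Rnu3b4 were 85.4% identical, and Rnu3b3 matched Rnu3b4 in 215 of 216 aligned positions. How the authors' counting shared reads between such copies was not stated, so single copies of U1, U2, U3, 7SL and 7SK RNA are uncertain and family sums are given with them.

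The second set shows a pair of U1-like genes that behaved unlike each other, Gm25890 (chr3:96486555-96486719, minus strand) and Gm23804 (chr12:54714218-54714381, plus strand), identical in 159 of 165 aligned positions. Capitals mark the bases that differ. Rnu12, the U12 snRNA of the minor spliceosome (chr15:83149644-83149794, plus strand), is shown with them because its libraries fell into the same high and low values as those of Gm25890.
Gm25890: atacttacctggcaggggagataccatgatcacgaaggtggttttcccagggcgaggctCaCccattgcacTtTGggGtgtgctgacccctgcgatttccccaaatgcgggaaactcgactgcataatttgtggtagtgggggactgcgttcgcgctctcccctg
Gm23804: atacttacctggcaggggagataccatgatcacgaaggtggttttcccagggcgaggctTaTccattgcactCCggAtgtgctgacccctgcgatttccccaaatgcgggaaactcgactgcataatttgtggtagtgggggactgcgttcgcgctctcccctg
Rnu12: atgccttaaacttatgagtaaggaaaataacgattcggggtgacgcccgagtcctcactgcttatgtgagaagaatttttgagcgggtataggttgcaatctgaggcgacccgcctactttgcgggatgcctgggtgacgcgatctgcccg

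Between 10.1 and 33.1 M reads per library were estimated to lie on genes, and the detection floor of 3 reads therefore stood between 0.0906 and 0.298 CPM, which covers counting error only. Naïve adult replicate 1 stood apart with the largest 7SL share of the 24 libraries. Type 2 alveolar cell markers (Sftpc, Sftpb, Sftpa1, Lamp3 and Abca3) were present in every group, with summed levels of 2674 to 12520 CPM. In whole lung, fewer cells of a type and less RNA per cell cannot be told apart. Summed macrophage markers (3 of 3 measured) were 182 to 269 CPM in saline and 383 to 3042 CPM in HDM lungs. Club cell markers (3 of 3) were 4645 to 6642 CPM and 279 to 2728 CPM, and heart muscle markers (4 of 4) were 532 to 948 CPM and 20.2 to 397 CPM. The part of these differences in the results below was not tested.

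7SL RNA took 10.04%, 18.1%, 9.92%, 12.1% and 10.9% of the reads in saline replicates 1 to 5. In HDM libraries it took 14.96% to 34.0%, with a median of 281100 CPM against 108800 CPM in saline. In HDM + Dex libraries the share was 11.3% to 31.6%. The naïve adult libraries had 42.0%, 17.2%, 14.5%, 13.6% and 16.2%. HDM and saline overlapped in their ranges because saline replicate 2 (181100 CPM) lay above the 2 lowest HDM libraries (149600 and 153900 CPM), which were the 2 female HDM mice. Within each sex the groups did not overlap, at 99190 to 120900 CPM against 149600 to 153900 CPM in females and 100400 to 181100 CPM against 270900 to 339700 CPM in males. The difference of mean log2 CPM, HDM minus saline, was 1.04 ± 0.24 (SE). It was −0.22 ± 0.31 for HDM + Dex minus HDM and −0.66 ± 0.34 for aged minus adult. The age difference includes naïve adult replicate 1, at 419800 CPM against 135800 to 171700 CPM in the other adults. It also takes no account of sex, and all 5 adults were female.

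**Figure D1:**
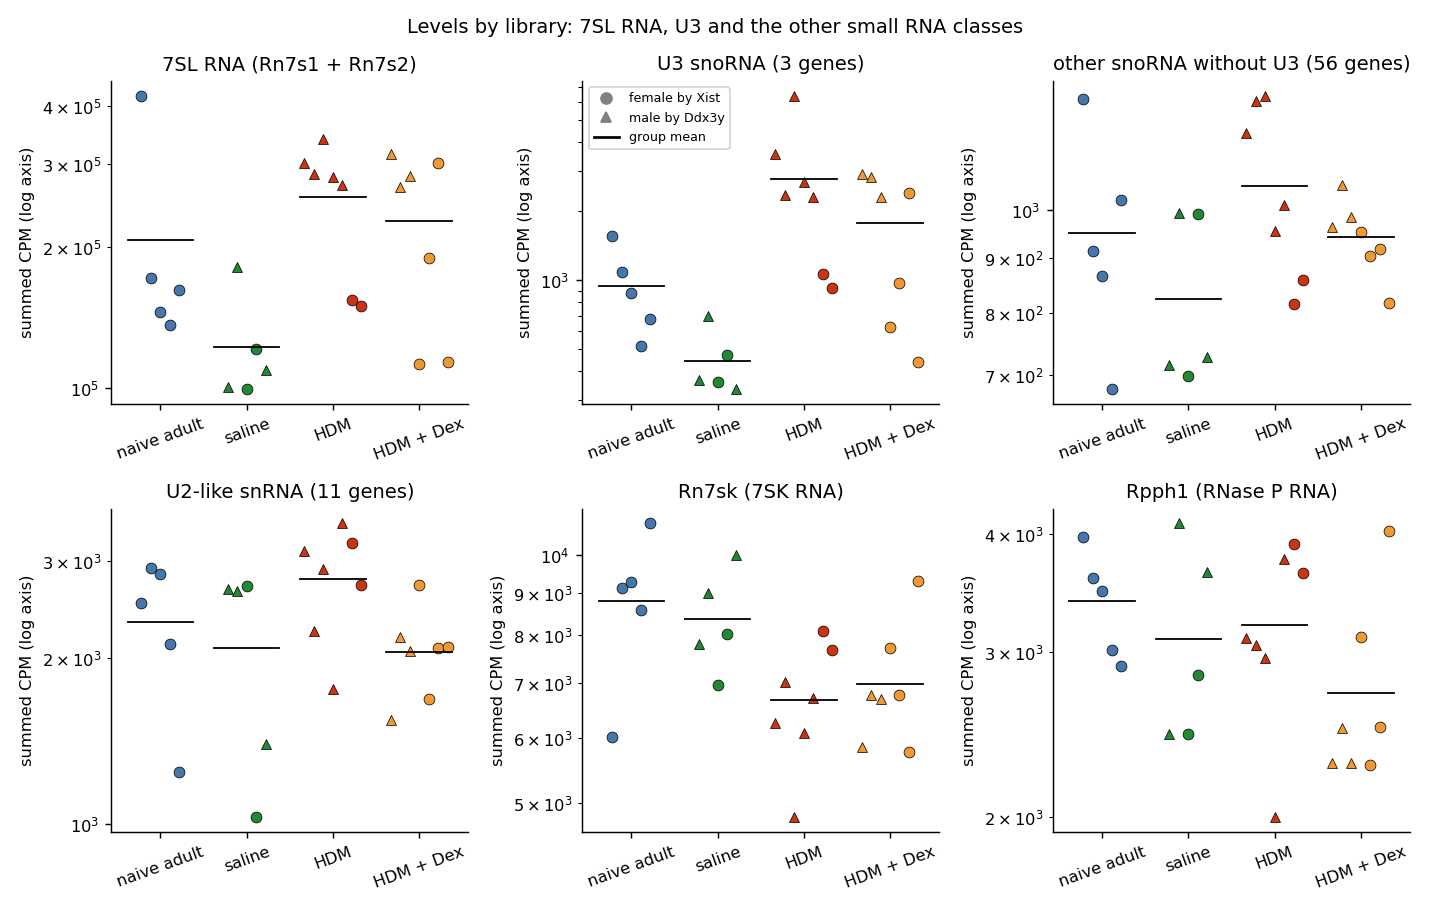
Summed CPM (log axes) in each of the 24 libraries for 7SL RNA, U3 snoRNA, the other snoRNA without a Snord or Snora symbol, U2-like snRNA, Rn7sk and Rpph1, by group, with circles for female and triangles for male mice and bars for the group means. The 7 HDM libraries lie above the 5 saline libraries for U3, at 923 to 6389 CPM against 334 to 697 CPM, while the 2 groups overlap in the other panels.

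Because 7SL RNA took up to 42.0% of a library, a larger share of it lowers the CPM of every other gene. The median gene of all those tested had a log2 change of −0.23 between HDM and saline on the CPM as deposited. After rescaling each library by the median of its gene ratios, this was −0.01. Slopes on 7SL RNA were therefore computed from rescaled CPM, and the group comparisons are given for CPM as deposited, with the rescaled counts beside them.

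HDM vs. saline was the comparison with most changes. Of the 109 small RNA genes tested, 25 rose and 2 fell in HDM lungs, led by the 3 U3 genes, U8, copies of U2 snRNA and copies of 7SL RNA. Among the 17630 other genes, 25.3% were called in either direction (3.93% higher and 21.3% lower), against 24.8% of the small RNA genes (22.9% higher and 1.83% lower). The share called was thus near that of other genes, and the directions differed. The median log2 change was 0.15 for the small RNA genes and −0.23 for other genes. After rescaling, 28 rose and 1 fell, against 10.8% higher and 11.7% lower for other genes, with medians of 0.37 and −0.01 and 22.4% of other genes called. Without the filter on low values, 27 of all 182 rose and 3 fell, against 19.9% of other genes called (3.0% higher and 16.9% lower). Tests were limma's moderated tests on log2(CPM + 1), with p-values adjusted over all genes by the Benjamini-Hochberg method at 0.05. Fold changes on this scale understate those of low genes. The libraries were poly(A)-selected, whereas the mature forms of most of these RNA carry no poly(A) tail. How far this selection differed between libraries was not tested, in this or the other comparisons.

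U3 snoRNA, which pairs with the precursor of 18S ribosomal RNA and is needed for its cleavage, changed most. The summed level of Rnu3a, Rnu3b3 and Rnu3b4 was 368, 697, 359, 468 and 334 CPM in the saline libraries. In HDM libraries the lowest, median and highest sums were 923, 2342 and 6389 CPM, so the groups did not overlap. The same held in females (359 to 468 against 923 to 1062 CPM) and in males (334 to 697 against 2317 to 6389 CPM). The 9 genes annotated as rRNA, outside the set, moved with it, at 7288 to 15940 CPM summed in saline and 20740 to 37730 CPM in HDM libraries, also without overlap (log2 difference 1.25 ± 0.23), and their part in the differences of U3, U8 and the 7SL copies was not tested. Rnu3b3 rose by 2.60 ± 0.50 on the log2 scale (SE, adjusted p = 0.0012), Rnu3b4 by 2.40 ± 0.48 (adjusted p = 0.0016) and Rnu3a by 2.17 ± 0.44 (adjusted p = 0.0018).

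Snord118, whose U8 RNA is needed for cleavage of the precursors of 5.8S and 28S ribosomal RNA, was at 3.07, 12.5, 2.71, 6.08 and 2.82 CPM in saline. HDM libraries held 12.8 to 55.0 CPM with a median of 25.9 CPM. Every HDM library thus lay above every saline library, although by little over saline replicate 2. The log2 change was 2.36 ± 0.56 (SE, adjusted p = 0.0049).

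Of the 7 C/D snoRNA tested by the Snord symbol, 3 rose and none fell, and the median log2 change was 0.53. Besides Snord118 these were Snord15a (0.78 ± 0.19, adjusted p = 0.0058) and Snord22 (0.74 ± 0.24, adjusted p = 0.029). Snord22 missed the threshold without saline replicate 1 or 3 or HDM replicate 1 or 3. Snord15b, a guide for 28S ribosomal RNA modification carried by the ribosomal protein gene Rps3, did not pass the test, with 0.53 ± 0.26 (adjusted p = 0.13).

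H/ACA snoRNA guide pseudouridine formation. Of 15 tested by the Snora symbol, Snora81 and Snora57 rose, Snora64 fell and 12 did not pass, with a median of 0.15. After rescaling the median was 0.37, and Snora64 was not called (−1.0 ± 0.40, adjusted p = 0.075). Snora81 was at 79.7, 118, 78.6, 32.2 and 51.9 CPM in saline and between 73.3 and 176 CPM in HDM lungs, so the groups overlapped, and its log2 change was 0.77 ± 0.26 (adjusted p = 0.036). The call was lost without any one of saline replicates 3, 4 and 5 or HDM replicates 1 to 4. Snora73a and Snora73b, which take part in ribosomal RNA processing, differed by 0.21 ± 0.27 and 0.24 ± 0.25 and did not pass. Of the 34 snoRNA with neither symbol and outside the U3 family, 4 rose and none fell, with a median of 0.05. The clearest of the 4, named after its values were seen, was Gm25835 in an intron of Eif4a1, at 150, 225, 149, 218 and 146 CPM in saline and 255 to 566 CPM in HDM lungs, without overlap (1.12 ± 0.20, adjusted p = 0.00087).

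Among the 10 scaRNA tested, Gm22009, Gm23119 and Gm26083 rose, Scarna13 fell and 6 did not pass. Scarna13 was at 51.0, 56.1, 42.3, 49.9 and 55.7 CPM in saline. Its HDM libraries ran from 15.6 to 47.3 CPM with a median of 25.6 CPM, and 2 of them reached the saline range. The log2 change was −0.89 ± 0.28 (adjusted p = 0.024), and −0.64 ± 0.21 after rescaling (adjusted p = 0.032). It missed the threshold without saline replicate 5, HDM replicate 3 or HDM replicate 4. Scarna2, a guide for U2 snRNA modification, did not pass on the CPM as deposited.

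The snRNA split by family. Of the 11 U2-like genes tested, 7 rose and none fell (median 0.87), whereas none of the 11 U1-like genes passed (median −0.23). Gm25939 rose by 1.12 ± 0.20 (adjusted p = 0.00074), and its levels of 68.2, 73.6, 72.6, 47.1 and 34.9 CPM in saline lay below all HDM libraries (88.2 to 166 CPM). Gm23444 was at 168, 180, 170, 119 and 82.6 CPM in saline and at 220 to 327 CPM in HDM lungs, again without overlap (0.95 ± 0.19, adjusted p = 0.0016). Gm23849 and Gm24950, with identical sequences over 191 bases, differed in their calls. Gm23849 rose by 1.00 ± 0.21 (adjusted p = 0.0024), while Gm24950 did not pass. Reads within these bases cannot be told apart, so neither result can be assigned to either gene alone. The summed U2-like level overlapped, at 1031 to 2703 CPM in saline and 1758 to 3503 CPM in HDM lungs. In saline its lowest libraries were replicates 4 and 5, and 2 further U2-like genes, Gm23472 (1.59 ± 0.41, adjusted p = 0.0085) and Gm24497 (1.49 ± 0.36, adjusted p = 0.0051), were also lowest there.

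Of the 13 misc_RNA tested, 3 rose and none fell, and all 3 were copies of 7SL RNA. How far reads of 7SL RNA were counted on these copies was not tested. Rn7s6, 85.0% identical to Rn7s1, was at 98.1, 155, 114, 45.1 and 102 CPM in saline and at 164 to 555 CPM in HDM libraries. The groups did not overlap, and the log2 change was 1.61 ± 0.41 (adjusted p = 0.0077). Gm24514 (84.5% identical) rose by 1.04 ± 0.24 (adjusted p = 0.0038) and Gm23153 by 1.21 ± 0.28 (adjusted p = 0.0047). None of the 6 copies of 7SK RNA tested passed on the CPM as deposited, but after rescaling Gm24447 was called higher (0.59 ± 0.20, adjusted p = 0.038). Rn7sk itself, whose 7SK RNA holds the elongation factor P-TEFb inactive, was at 7796, 8983, 6966, 8028 and 9998 CPM in saline and 4815 to 8098 CPM in HDM lungs. Its difference of mean log2 CPM was −0.33 ± 0.13 as deposited and −0.08 ± 0.11 after rescaling. Rpph1, the RNA of RNase P, which trims transfer RNA precursors, differed by 0.05 ± 0.20, and Rmrp, the RNA of RNase MRP, which acts on ribosomal RNA precursors, by −0.12 ± 0.35.

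**Figure D2:**
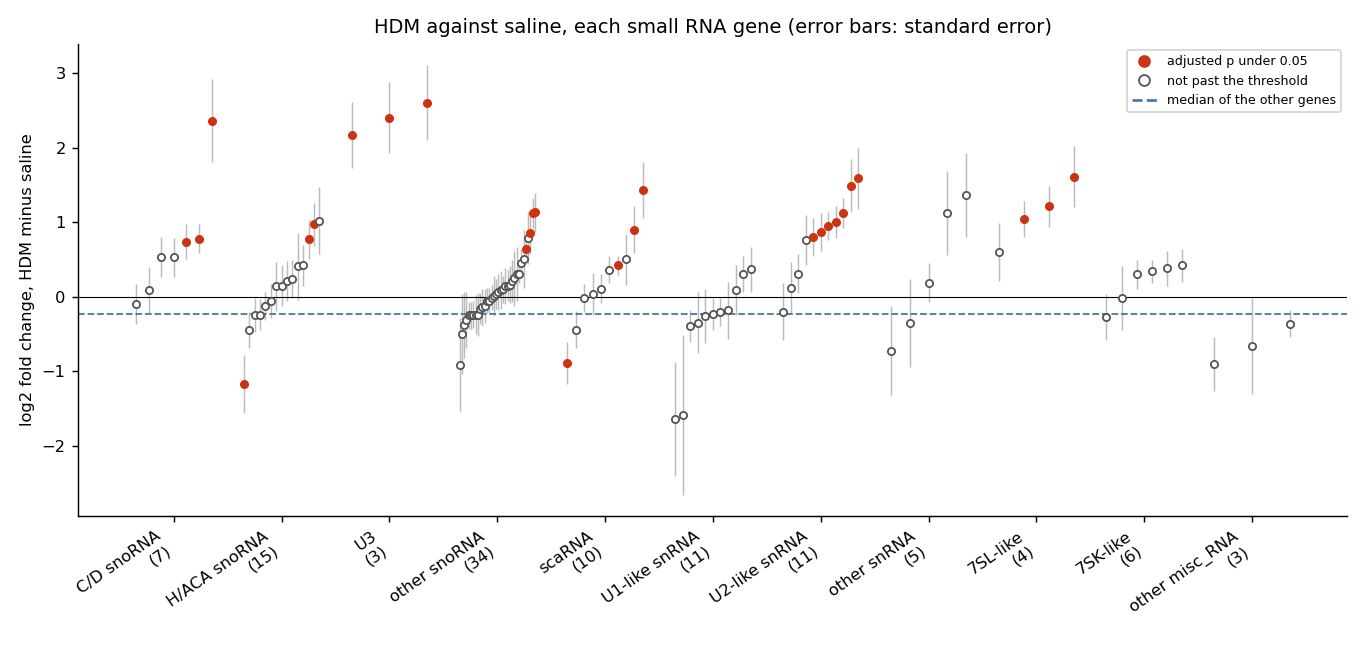
Log2 fold change, HDM minus saline, of each of the 109 small RNA genes tested on log2(CPM + 1), by class, with bars for the standard error, filled points for an adjusted p under 0.05 and a dashed line at the median of the other genes. All 3 U3 genes lie above 2, 7 of 11 U2-like genes are filled, and none of the U1-like or 7SK-like genes is.

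Which classes moved with 7SL RNA was asked within groups. For each gene the slope of log2(rescaled CPM + 1) on log2 of the rescaled 7SL level was fitted over all 24 libraries with the group as a term, so differences between group means did not enter. A slope of 1 means that the gene doubled where 7SL RNA doubled. Of the 109 small RNA genes, 60 had a positive and 5 a negative slope past the threshold, or 55.0% and 4.59%. Of the other genes 10.1% were called, with 5.15% positive and 4.92% negative. Without the filter, 67 of 182 were positive and 6 negative, against 7.13% of other genes called (3.63% positive and 3.5% negative). The median slope was 0.40 for the small RNA genes and −0.01 for the others. Changes in the lung and differences between library preparations cannot be told apart in these slopes.

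Naïve adult replicate 1 weighed on these numbers. Without it, 46 slopes were positive and 11 negative, against 11.7% called among other genes (6.06% positive and 5.66% negative), and the median was 0.33. With sex as a term, 50 were positive and 3 negative, against 4.55% called among other genes (2.48% positive and 2.07% negative). On the CPM as deposited, where a larger 7SL share lowers all other genes, 40 were positive and 20 negative, while 69.0% of other genes were called, 0.681% as positive and 68.3% as negative.

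U3 had the steepest class slope. The summed U3 level changed by 1.28 ± 0.11 (SE) on the log2 scale per doubling of 7SL RNA, and by 1.53 ± 0.10 without naïve adult replicate 1. The single genes had slopes of 1.32 ± 0.11 for Rnu3b3 (adjusted p = 5.7e-08), 1.28 ± 0.09 for Rnu3a (adjusted p = 1.3e-09) and 1.24 ± 0.12 for Rnu3b4 (adjusted p = 2.1e-07). Snord118 had a slope of 1.33 ± 0.13 (adjusted p = 7.4e-07). With sex as a term the slopes were 1.19 ± 0.13 for Rnu3b3, 1.23 ± 0.11 for Rnu3a, 1.08 ± 0.13 for Rnu3b4 and 1.24 ± 0.16 for Snord118, all 4 still called. In that fit only Rnu3a lay more than 2 standard errors above 1, so a slope steeper than that of 7SL RNA itself was not shown for the others. In HDM + Dex replicates 1 to 7, 7SL RNA took 31.6%, 26.8%, 28.4%, 11.25%, 18.9%, 30.2% and 11.35% of the reads, and U3 had 2912, 2822, 2316, 621, 973, 2394 and 439 CPM. Replicates 4, 5 and 7 were thus the lowest for both. These 3 were female, as was replicate 6, while replicates 1 to 3 were male.

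The other snoRNA classes had smaller positive slopes. The class sums had slopes of 0.62 ± 0.06 for C/D snoRNA, 0.59 ± 0.08 for H/ACA snoRNA and 0.52 ± 0.05 for the snoRNA with neither symbol outside U3. Positive slopes passed in 5 of 7 C/D, 7 of 15 H/ACA and 22 of 34 other snoRNA, with 2 of the last negative. Snord15b had 0.84 ± 0.09 (adjusted p = 7.8e-07), Snord22 0.77 ± 0.10 and Snora81 0.68 ± 0.10. Snord17, a C/D snoRNA in an intron of Snx5, had 0.08 ± 0.17 (adjusted p = 0.81). Without naïve adult replicate 1, only 3 of 15 H/ACA slopes passed, although the slope of their sum was 0.54 ± 0.09.

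The scaRNA sum had a slope of 0.34 ± 0.06, with 7 of 10 genes positive and Scarna13 negative (−0.30 ± 0.08, adjusted p = 0.014). On the CPM as deposited the slope of the scaRNA sum was 0.07 ± 0.09, which does not differ from 0 beyond its error.

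The snRNA depended on 1 library. Their sum had a slope of 0.41 ± 0.09, which became 0.21 ± 0.08 without naïve adult replicate 1, and on the CPM as deposited it was 0.15 ± 0.12 with and −0.05 ± 0.12 without that library. The U1-like sum moved from 0.40 ± 0.12 to 0.13 ± 0.11. That library had 5314 CPM of U1-like snRNA against 1756 to 2474 CPM in the other 4 adults. The U2-like sum had 0.25 ± 0.13, or 0.14 ± 0.16 without it. U2-like snRNA thus differed between HDM and saline in 7 of 11 genes but had a positive slope within groups in 4 of 11. Gm24407, an snRNA outside these families that shares 98.6% of its bases with Gm24265, had a slope of 1.22 ± 0.20 (adjusted p = 0.00042).

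The copies of 7SL RNA had a summed slope of 0.80 ± 0.09, and 3 of 4 passed, among them Gm24514 (0.83 ± 0.06, adjusted p = 1.3e-09) and Rn7s6 (1.00 ± 0.14, adjusted p = 7.3e-05). Their sum was 312 to 1567 CPM over the 24 libraries, far below the 7SL level of 99190 to 419800 CPM. Reads of 7SL RNA counted on these copies would move with it by construction, and their share was not tested. The copies of 7SK RNA had 0.27 ± 0.08. Of these 3 of 6 passed, and none did with sex as a term. Rn7sk had 0.06 ± 0.05, Rmrp 0.13 ± 0.16 and Rpph1 0.21 ± 0.09, or 0.06 ± 0.09 without naïve adult replicate 1. On the CPM as deposited these 3 RNA had negative slopes, with −0.33 ± 0.07 for Rn7sk. Outside the set, the 9 genes annotated as rRNA had a summed slope of 0.80 ± 0.08.

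**Figure D3:**
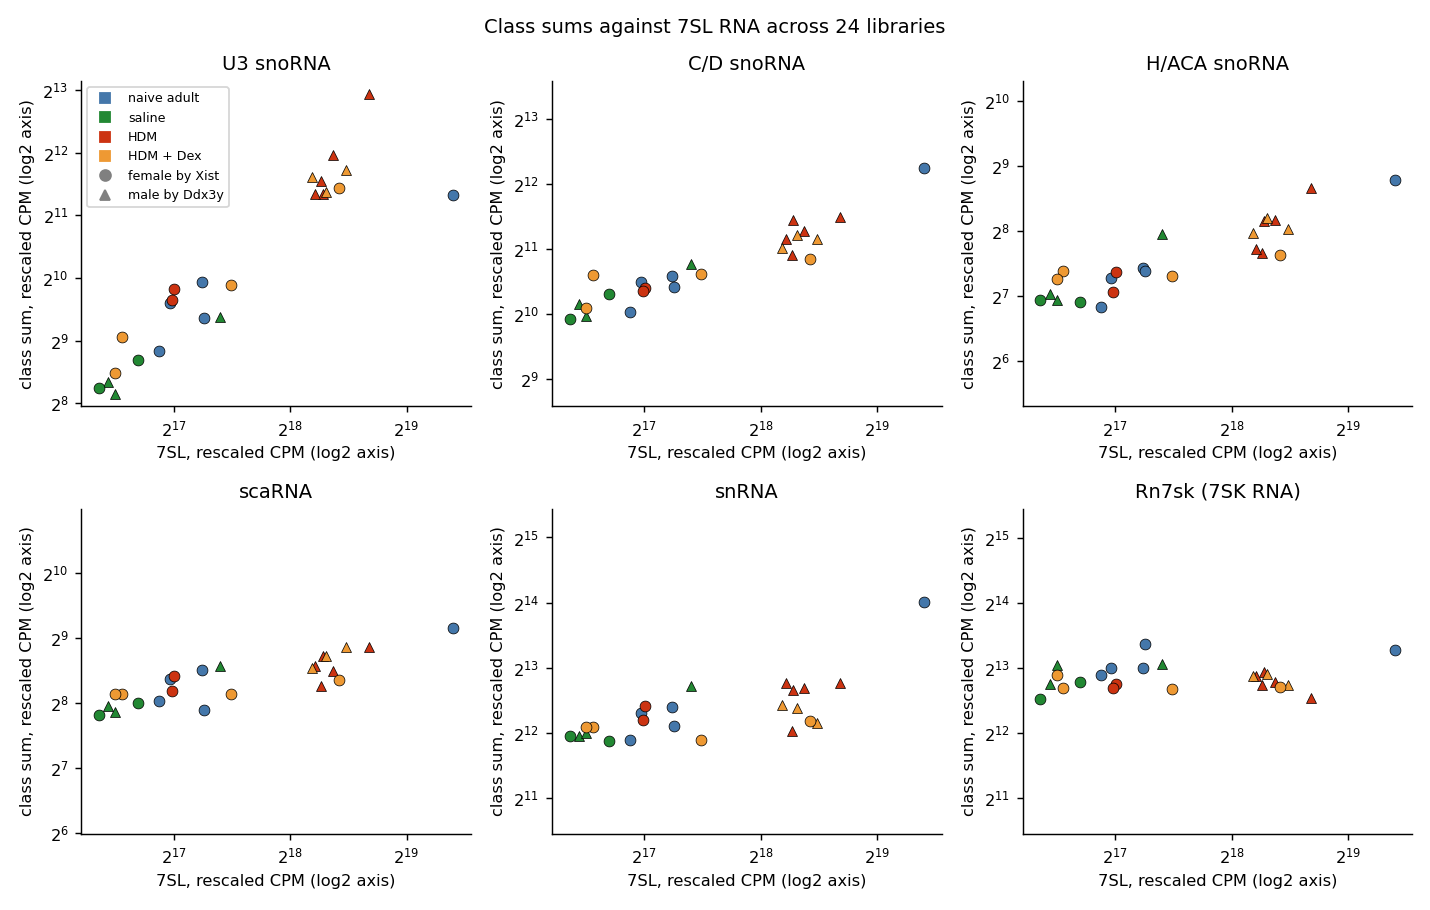
Summed rescaled CPM of U3, C/D snoRNA, H/ACA snoRNA, scaRNA, snRNA and Rn7sk against the rescaled 7SL level (log2 axes) in the 24 libraries, with colours for the groups, circles for female and triangles for male mice. The points rise most steeply for U3 (slope 1.28), less so for C/D snoRNA (0.62), and lie nearly flat for Rn7sk (0.06).

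**Figure D4:**
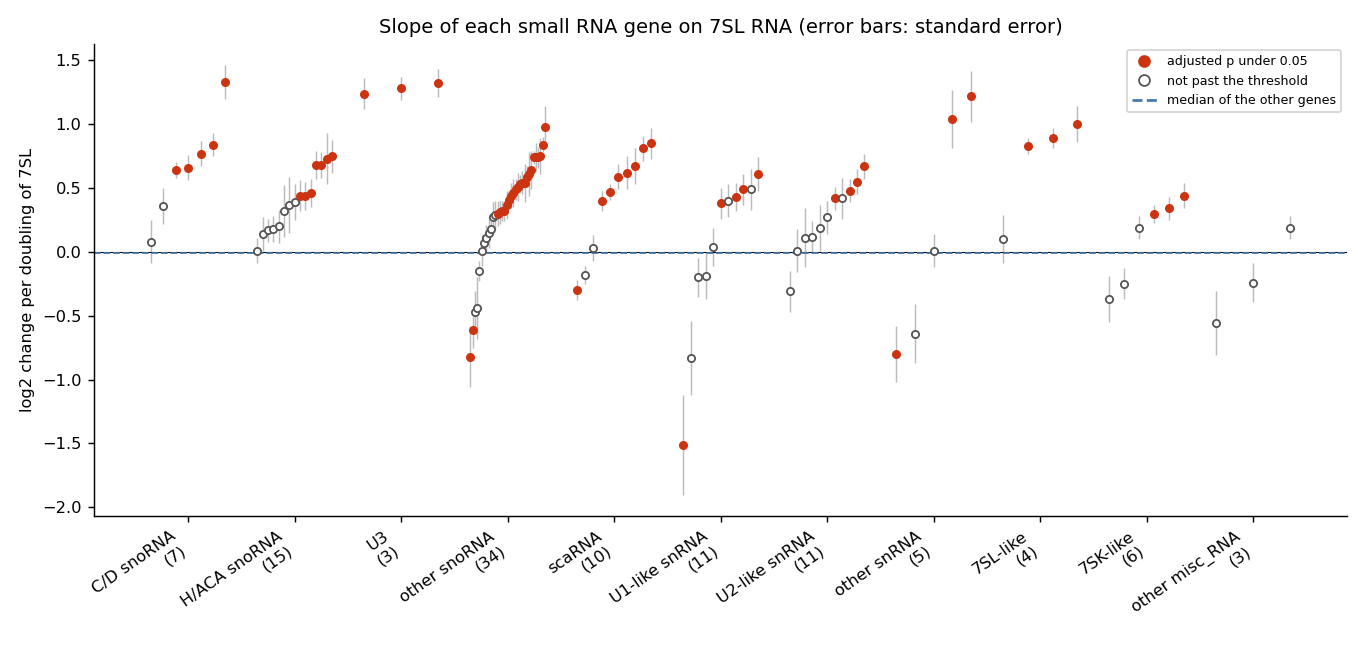
Slope on 7SL RNA of each of the 109 small RNA genes, as log2 change per doubling of 7SL RNA, by class, with bars for the standard error, filled points for an adjusted p under 0.05 and a dashed line at the median of the other genes. U3 genes lie between 1.24 and 1.32, most snoRNA and scaRNA lie above the line, and the lowest point is the U1-like Gm25890 at −1.51.

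The 60 genes with a positive slope had a median length of 144 bases, a median GC content of 50.6% and a median level of 15.1 CPM. The 44 genes that did not pass had 165 bases, 50.8% and 6.99 CPM. A same-strand host gene held 42 of the 60 and 25 of the 44. Those with a positive slope thus had the higher median level.

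A second set of high and low libraries crossed the groups, in genes singled out after their values were seen. Vaultrc5, a vault RNA, was at 333, 456, 378, 101 and 628 CPM in saline, so that replicate 4 was low. In HDM libraries it was 120, 138, 94.5 and 59.2 CPM in replicates 1 to 4 and 521, 543 and 585 CPM in replicates 5 to 7. In HDM + Dex libraries it was 404 and 416 CPM in replicates 4 and 7 and 49.5 to 70.7 CPM in the other 5. The naïve adults had 353, 388, 392, 367 and 185 CPM.

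The U1-like Gm25890 was low in nearly the same libraries. It was at 40.5, 19.1, 51.2, 0.407 and 18.9 CPM in saline, at 0.290, 0.938, 1.72 and 0.274 CPM in HDM replicates 1 to 4 and at 25.5, 32.4 and 18.9 CPM in replicates 5 to 7. Naïve adults 1 and 5 were low as well, with 1.64 and 0.902 CPM against 12.3 to 15.9 CPM in the others. Gm23804, which differs from Gm25890 only at the bases in capitals above, showed no such split, with 1180, 2489, 1343, 1777 and 1916 CPM in saline and 1040 to 1980 CPM in HDM libraries. The U1-like Gm26244, 99.4% identical to Gm23804 and 95.8% to Gm25890, had a slope of −0.83 ± 0.29 (adjusted p = 0.069). Without naïve adult replicate 1 its slope was −1.46 ± 0.29 (adjusted p = 0.0026). Gm22513 and Gm24305, each 99.4% identical to Gm23804, had slopes of 0.38 ± 0.12 and −0.19 ± 0.18. The part of the bases in capitals in this split was not tested.

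Rnu12 followed Gm25890, at 7.70, 5.11, 8.41, 0.252 and 4.21 CPM in saline. Among HDM libraries it was 0.222 to 3.08 CPM in replicates 1 to 4 and 6.38 to 9.58 CPM in replicates 5 to 7. Snord17 was less divided, at 247 to 344 CPM and 529 to 818 CPM in those HDM libraries. The pattern was not in every library that of 7SL RNA turned over. HDM replicate 5 had 27.1% 7SL RNA and high levels of these genes, while HDM + Dex replicate 5 had 18.9% 7SL RNA and low levels. Of the 5 genes with a negative slope, Gm25890 (−1.51 ± 0.39, adjusted p = 0.016), the snoRNA gene Gm24044 (−0.82 ± 0.24, adjusted p = 0.029), Rnu12 (−0.80 ± 0.22, adjusted p = 0.023) and the snoRNA gene Gm22362 (−0.61 ± 0.14, adjusted p = 0.0059) had this split. Vaultrc5 had −0.56 ± 0.25 (adjusted p = 0.15), and −1.09 ± 0.25 without naïve adult replicate 1 (adjusted p = 0.008). In that fit Gm25890 had −2.04 ± 0.46, Gm24044 −1.19 ± 0.27, Rnu12 −1.01 ± 0.27 and Gm22362 −0.61 ± 0.17, all called. None of these genes passed between HDM and saline. Without HDM + Dex replicate 4, Gm25890, Gm24044 and Rnu12 missed the threshold for the slope. With sex as a term Gm24044 (adjusted p = 0.065) and Rnu12 (adjusted p = 0.073) missed it, and with a replicate block none of the 109 slopes was called negative.

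**Figure D5:**
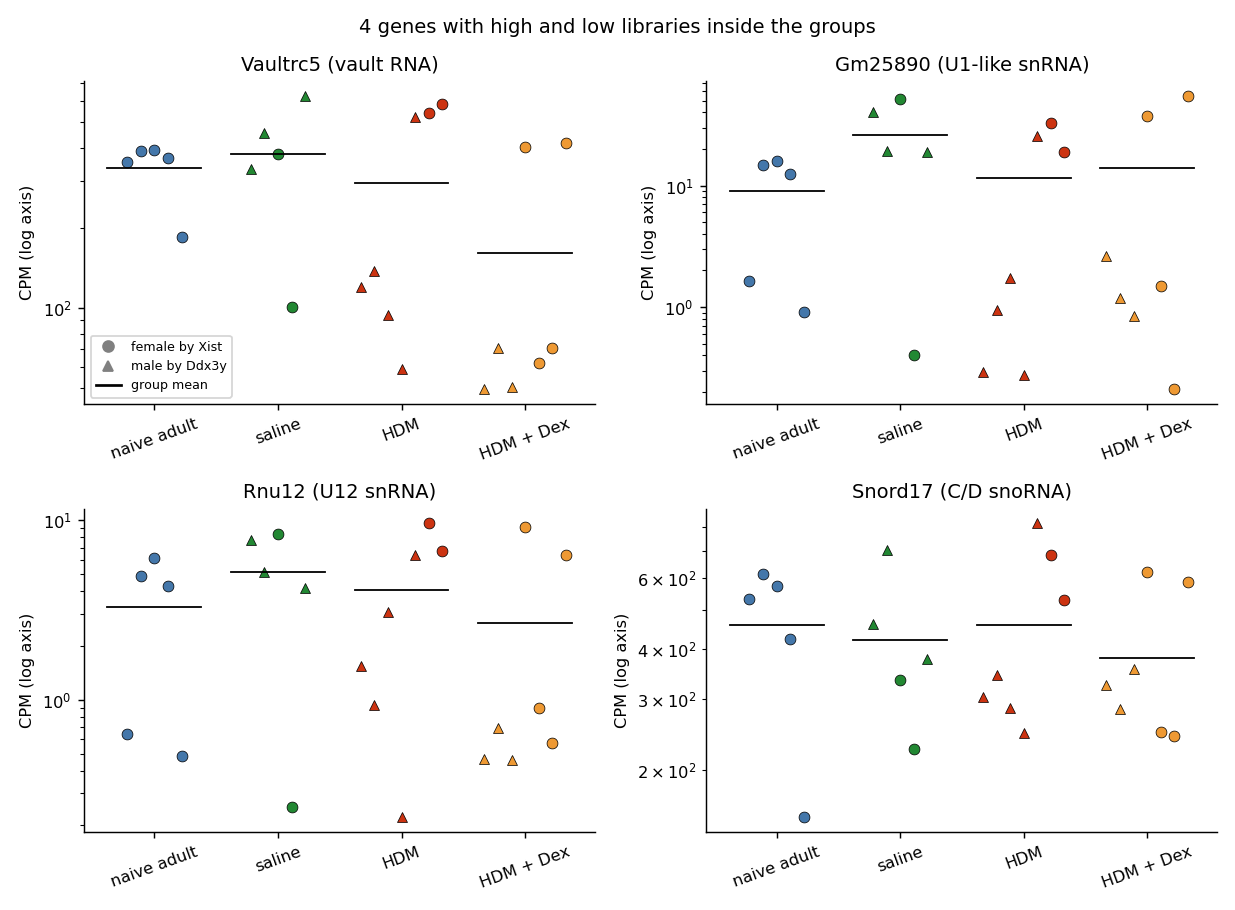
CPM (log axes) of Vaultrc5, Gm25890, Rnu12 and Snord17 in each of the 24 libraries by group, with circles for female and triangles for male mice and bars for the group means. HDM replicates 1 to 4 lie below replicates 5 to 7 in each panel, for Vaultrc5 at 59.2 to 138 CPM against 521 to 585 CPM.

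Dex treatment changed no small RNA gene past the threshold. In HDM + Dex vs. HDM limma called 0 of 109, against 0.97% of other genes (0.754% higher and 0.216% lower), and 8 of the 109 (7.34%) had an unadjusted p under 0.05, against 13.5% of other genes. After rescaling it called 0, against 2.86% of other genes. There 11 (10.1%) had an unadjusted p under 0.05, against 18.6% of other genes. The U3 genes had log2 differences of −0.69 ± 0.40 (Rnu3a) to −0.65 ± 0.44 (Rnu3b4), so a fall or no change cannot be told apart at this spread. U3 sums in HDM + Dex were 439 to 2912 CPM and overlapped both saline and HDM. The U2-like Gm23472 had −1.31 ± 0.38 (adjusted p = 0.093) and Vaultrc5 −0.98 ± 0.58 (adjusted p = 0.51). By class, the median log2 differences were −0.21 for C/D snoRNA, −0.06 for H/ACA snoRNA, −0.13 for the other snoRNA outside U3, −0.03 for scaRNA, −0.39 for snRNA and −0.20 for misc_RNA. The median of other genes was 0.03.

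In HDM + Dex vs. saline, Rnu3b3 rose by 1.93 ± 0.50 (adjusted p = 0.046) and Rn7s6 by 1.57 ± 0.41 (adjusted p = 0.049), and none fell. The share called, 1.83% of the small RNA genes, was near the 1.89% of other genes called (0.437% higher and 1.45% lower). These calls rested on the setting. After rescaling limma called 0, against 0.947% of other genes. There 29 (26.6%) had an unadjusted p under 0.05, against 15.7% of other genes. With sex as a term 13 were called (11.9%, with 11.0% higher and 0.917% lower), against 10.9% of other genes (0.953% higher and 9.91% lower). Of these 12 rose, among them Rnu3b4 (1.96 ± 0.36, adjusted p = 0.0045), Rnu3a (1.66 ± 0.35, adjusted p = 0.0098) and Snord118 (1.78 ± 0.47, adjusted p = 0.026), and Scarna13 fell (−0.85 ± 0.25, adjusted p = 0.038). Leaving out one library at a time gave 0 to 10 calls, with 0 without saline replicate 1, 3, 4 or 5, HDM replicate 4 or 5, or HDM + Dex replicate 1, 2, 3 or 6, and with 1 without HDM replicate 1 or 2. It gave 4 without HDM replicate 7, 5 without saline replicate 2 or HDM replicate 3, 7 without HDM + Dex replicate 4 and 10 without HDM + Dex replicate 7. HDM vs. saline and HDM + Dex vs. saline share their saline libraries.

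Age gave 1 call. Rnu1b1, a U1 snRNA gene, was at 1.61, 0.984, 1.67, 1.24 and 1.07 CPM in adult and 2.33, 4.73, 7.79, 2.76 and 3.98 CPM in aged naïve lungs, without overlap. It rose by 1.12 ± 0.24 (adjusted p = 0.043). The share called, 0.917% of the small RNA genes, was near the 0.652% of other genes called (0.59% higher and 0.0624% lower). After rescaling limma called 0, against 1.04% of other genes. There 21 (19.3%) had an unadjusted p under 0.05, against 13.8% of other genes. The call was lost without naïve adult replicate 1, 2, 3 or 5 or saline replicate 3 or 5. The U1-like sum overlapped, at 1756 to 5314 CPM in adult and 1730 to 3627 CPM in aged naïve lungs. The 5 adults were all female by Xist. With sex as a term, which compares age among the females, limma called 0, against 0.698% of other genes. In that fit 14 (12.8%) had an unadjusted p under 0.05, against 9.26% of other genes. Rnu1b1 had 1.32 ± 0.32 (adjusted p = 0.086) there. U3 sums were 1552, 1083, 875, 516 and 676 CPM in adults, all but 2 of which lay above all 5 saline libraries. The U3 genes did not pass (−1.11 ± 0.28 for Rnu3b3, adjusted p = 0.091). Class medians, aged minus adult, ran from −0.43 for C/D snoRNA to −0.06 for snRNA, with no other gene past the threshold. The median of other genes was 0.19. Over all genes tested the median was 0.19, and 0.04 without naïve adult replicate 1.

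Of the 187 genes, 119 lay on the same strand within a longer gene, 78 of them in introns only. In HDM vs. saline, 7 of 44 intronic genes tested with their hosts were called, and none of the 7 hosts was called, against 25.3% of all other genes, whereas after rescaling 8 were called and 2 hosts with them in the same direction. For the slope on 7SL RNA, 26 of the 44 were called, and 3 of the 26 hosts with them in the same direction. Of all other genes, 5.15% had a positive and 4.92% a negative slope called. Gm22009 rose by 0.42 ± 0.13 in HDM lungs while its host Kpna4, an importin gene, had −0.29 ± 0.15 (adjusted p = 0.16). Gm23849, whose reads cannot be told from those of the identical Gm24950, rose while its host Rdm1 had −0.38 ± 0.19 (adjusted p = 0.13). Rcc1, a chromatin-bound exchange factor of Ran that hosts Snora73a and Snora73b, rose by 0.76 ± 0.20 (adjusted p = 0.0092), whereas its snoRNA did not pass.

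Where a small RNA overlapped an exon of its host, reads of both can be shared. Snord22 and its host Snhg1, a snoRNA host transcript, had slopes of 0.77 ± 0.10 and 0.81 ± 0.12. Snord15b had 0.84 ± 0.09 and Rps3 0.40 ± 0.06. Of the 6 snoRNA and scaRNA tested without a host, 4 rose in HDM lungs, against 8 of 41 in introns only and 3 of 22 overlapping an exon. Among all other genes 3.93% rose, and among the small RNA genes 22.9%. The U3 genes stood on both sides, Rnu3a without a host and Rnu3b3 and Rnu3b4 in introns of Tex14, so these counts do not separate genes with their own promoters.

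Genes for proteins that bind or make these RNA were taken from lists. Their counts are read against the shares of all other genes, 3.93% higher and 21.3% lower in HDM vs. saline and 10.1% called for the slope. None of the 10 genes tested for proteins of the signal recognition particle and its receptor passed in HDM vs. saline (median −0.21), and 1 did for the slope, Srp19, which binds 7SL RNA (−0.27 ± 0.09, adjusted p = 0.048). None of the 5 genes for C/D and 6 for H/ACA snoRNA proteins passed in HDM vs. saline. After rescaling, Fbl, the methyltransferase of C/D snoRNA, was called higher (0.69 ± 0.23, adjusted p = 0.036). For the slope, Nop56, a core C/D protein, was called (−0.23 ± 0.06, adjusted p = 0.012), against the positive slopes of the C/D snoRNA.

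Of 27 genes tested for RNA polymerase III and its factors, 3 fell and none rose in HDM lungs, a smaller share than the 21.3% of all other genes that fell. Those were the subunits Polr3f (−0.60 ± 0.17) and Polr3k (−0.56 ± 0.17) and the TFIIIB subunit Bdp1 (−0.40 ± 0.14). After rescaling only Polr3f was called (−0.36 ± 0.12, adjusted p = 0.031). For the slope, Polr3gl (0.23 ± 0.06) and Brf1 (0.21 ± 0.05) were called. Of 7 genes of the 7SK particle and P-TEFb, Hexim1, an inhibitor of P-TEFb, fell by 0.39 on the log2 scale (SE 0.13, adjusted p = 0.032), but was not called after rescaling. After rescaling 1 of the 7 was called higher and none lower. For the slope, 2 of the 7 were called positive and 1 negative.

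Of 5 genes for Y RNA, La and vault proteins, Ro60, which binds Y RNA, fell (−0.71 ± 0.18, adjusted p = 0.0063) and Tep1, a vault protein, rose (0.50 ± 0.13, adjusted p = 0.01), both also after rescaling (−0.46 ± 0.13 and 0.74 ± 0.10). After rescaling 2 of the 5 were called higher and 1 lower. For the slope, 1 of the 5 was called negative. Rny1, a Y RNA bound by Ro60, was at 3.85, 3.01, 5.37, 1.51 and 5.10 CPM in saline and 0.199 to 3.96 CPM in HDM lungs, and did not pass (−0.90). Of 31 spliceosomal protein genes, Lsm4 rose (0.53 ± 0.19) and Prpf3 and Rnpc3 fell (both −0.43), but after rescaling Lsm4, Prpf31, Eftud2 and Sart3 were called higher and none lower. For the slope, 3 of the 31 were positive and 4 negative, with the steepest in Snrnp70, a U1 snRNP protein (0.46 ± 0.06, adjusted p = 3.9e-05). In HDM lungs Ints6, of the Integrator complex that cuts snRNA 3′ ends (−0.47 ± 0.16, 1 of 15), and Exosc7, of the nuclear exosome (−0.66 ± 0.22, 1 of 13), also fell, and neither was called after rescaling. After rescaling 1 of the 13 exosome genes was called higher, and for the slope 1 of them was called negative. None of the 10 RNase P and MRP protein genes or the 4 Cajal body genes passed in HDM vs. saline. For the slope Rpp14 (−0.30), Rpp30 (−0.29) and Nolc1 (−0.27) were called negative.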

How the data were processed

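RNA of 24 mouse lungs was analysed in the 4 groups of the sample labels, each mouse being 1 library. By the study's methods, the authors prepared stranded, poly(A)-selecting mRNA libraries, sequenced both ends and used a Picard-STAR-limma pipeline, while the labels name FastQC, STAR, DESeq2 and mm9. Sex for the sex term was read from Xist and Ddx3y. The deposited table holds CPM, reads on genes scaled to the same total in each library, to which the authors added a constant of 0.0001. Its gene coordinates were compared with GENCODE M21 on GRCm38. Of 23891 symbols, 23276 were found and 23140 had the same start, among them 185 of the 187 small RNA genes. Between 81.0% and 85.6% of the low values per library were whole multiples (within 0.05) of the spacing taken as 1 read, so no counts were recovered and no count test was run.

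Small RNA genes were grouped by biotype, symbol and, for families, at least 80% identity over 60% of the length by blastn 2.17.0. Host genes were protein-coding, long non-coding or transcribed pseudogenes in the table that hold the whole RNA on the same strand. limma 3.58.1 in R 4.3.3 was run on log2(CPM + 1) where the mean reached 1 CPM, using eBayes with trend and Benjamini-Hochberg adjustment at 0.05. The 19 aged libraries were fitted together and the 10 naïve libraries on their own. Slopes on log2 7SL level used CPM rescaled by median-of-ratios factors (18576 genes), all 24 libraries and the group. Class sums got means and SE but no test. This fit was first tested on simulated data with known changes. Python 3.11.15, numpy 2.4.6, pandas 2.3.3, biopython 1.88 and matplotlib 3.10.9 were used.

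Genes were named by rule: the 5 given by name, the 3 of each class with the highest mean CPM, up to 5 per direction with the largest change called on both scales, up to 5 per direction with the largest slope called, a list of known RNA (U3, U8, Snora73a, Snora73b, Snord17, U11, U12, Y RNA, vault RNA, Scarna2, Scarna10), their hosts and the called protein genes. Other genes were named after their values were seen, as were the second set of high and low libraries, and the members and lists were chosen with earlier results of these data known. Alternatives were other pseudocounts (0.1 and 5), filters, scalings, sample sets, eBayes without trend, a stricter threshold, a replicate block, sex as a term and leaving out each library. A second deposited file with no measurements was not used. The 7SL sequence is not reported here.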

Additional observations from a re-analysis of the deposited data

Results flagged for a closer look

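Libraries far from the others of their group, by Dixon's test at the 95% level, were sought in 164 combinations of a gene or class sum with a group. It marked 20, where chance marks about 1 in 20. Naïve adult replicate 1 was marked 6 times, always as the highest library. These were the 7SL sum at 419800 CPM (others 135800 to 171700), the U1-like sum at 5314 CPM (1756 to 2474), Gm23804 at 3784 CPM (1186 to 1770), Gm24407 at 917.9 CPM (176 to 325), Snord22 at 709.6 CPM (183 to 328) and Gm24514 at 644 CPM (257 to 343). Saline replicate 2 was also marked 6 times as the highest, for the 7SL sum at 181100 CPM (99190 to 120900), the scaRNA sum at 396.5 CPM (266 to 293), Gm24514 at 366.6 CPM (181 to 220), Rnu3b4 at 315.9 CPM (134 to 166), the H/ACA sum at 258.1 CPM (137 to 147) and Scarna2 at 121.8 CPM (61.3 to 69.1).

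Single genes were marked in other libraries. Rnu3b4 was at 2886 CPM in HDM replicate 3 (323 to 1342 in the others), Snora16a at 26.34 CPM in HDM replicate 2 (8.61 to 15.8) and Vaultrc5 at 185.3 CPM in naïve adult replicate 5 (353 to 392). HDM + Dex replicate 7 was marked for Rmrp at 1876 CPM (615 to 1077) and Snora73a at 23 CPM (6.50 to 11.4). Rnu11, the U11 snRNA, was marked in 3 groups, with 9.451 CPM in HDM replicate 6, 7.977 CPM in HDM + Dex replicate 7 and 1.155 CPM in naïve adult replicate 2, and each of these groups held libraries listed at the added constant of 0.0001 CPM.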

How the results depend on the processing

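No called small RNA gene of those named by rule changed sign under the alternatives run, while on the CPM as deposited the called slopes among all 109 genes went from 60 positive and 5 negative to 40 and 20. HDM vs. saline (27 calls) gave 15 at an adjusted p under 0.01 and 20 to 33 when one library was left out. The slope on 7SL RNA (65 calls) gave 36 with a replicate block, all positive, and 57 to 68 when one library was left out. With the block, 1.47% of other genes were called (0.868% positive and 0.607% negative). Animals of different groups shared only a replicate number (correlations of paired deviations from −0.24 to 0.41), and calls lost under the block say nothing of the size of an effect. HDM + Dex vs. HDM (0 calls) gave 0 to 1 when one library was left out. HDM + Dex vs. saline (2 calls) gave 0 with a pseudocount of 0.1, without filter, after median-of-ratios rescaling, with the total without 7SL RNA, without trend or at an adjusted p under 0.01, 14 with the replicate block, 13 with sex as a term, 13 with sex and rescaling (added after the data were seen) and 0 to 10 when one library was left out. Aged vs. adult (1 call) gave 0 with a pseudocount of 5, without filter, with a filter at 5 CPM, after both rescalings, with all 24 libraries, with sex as a term (added after the data were seen) or at an adjusted p under 0.01, and 0 to 1 when one library was left out.

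Protein genes called in HDM vs. saline (11) numbered 5 with all 24 libraries, 25 with the replicate block, 1 at an adjusted p under 0.01 and 4 to 20 when one library was left out, with 4 without saline replicate 3, 5 without saline replicate 1 or 5 or HDM replicate 3, 6 and 7 without HDM replicates 1 and 4, and 20 without HDM replicate 6. For the slope (19), they numbered 110 on the CPM as deposited, 41 with the total without 7SL RNA, 3 with the replicate block, 9 with sex, 3 at an adjusted p under 0.01 and 13 to 21 when one library was left out. Of all other genes, 25.3% were called in HDM vs. saline, 10.1% for the slope and 69.0% for the slope on the CPM as deposited. The slope calls were 22.8% of other genes with the total without 7SL RNA, 1.47% with the replicate block and 4.55% with sex. Intronic genes called without their host in HDM vs. saline (7) numbered 11 without filter, 4 at an adjusted p under 0.01 and 5 to 9 when one library was left out. For the slope (23), they numbered 11 with a filter at 5 CPM, 2 on the CPM as deposited, 11 with the replicate block and 19 to 26 when one library was left out. Of the log2 differences of class sums, those of scaRNA in HDM vs. saline went from 0.21 to 0.46 and 0.45 after rescaling by ratios and by the total without 7SL RNA, of Rn7sk from −0.33 to −0.08 and −0.09, and of the other snoRNA outside U3 in HDM + Dex vs. saline from 0.21 to 0.42 and 0.40. The scaRNA sum in HDM + Dex vs. saline went from 0.16 to 0.38 after rescaling by ratios. The causes were not tested. Genes near 0.0906 to 0.298 CPM are limited by depth.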
